A study of Mus musculus with 24 samples.

Results

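The glutathione, thioredoxin and NRF2 target genes were followed in B16-F10 mouse melanoma cells in which MITF, TFEB and TFE3, 3 related transcription factors, had been knocked out alone and in combination. The members were chosen by gene symbol alone, not by any measured value. A row belonged if its symbol fell in the Gst (alpha, mu, pi, theta, omega and zeta classes), Gpx, Prdx, Txn, Txnrd or Glrx families or was 1 of 20 named genes of the NRF2, pentose phosphate, ferritin and superoxide systems. This gave 54 of the 12010 genes in the table, 35 by family symbol and 19 by name, and Nqo1 was not analysed here. By role, the members comprise 2 genes for NRF2 and its inhibitor, 4 for glutathione synthesis and recycling, 10 for thioredoxins, their reductases, glutaredoxins and sulfiredoxin, 6 peroxiredoxins, 3 glutathione peroxidases, 3 for catalase and the superoxide dismutases, 19 glutathione S-transferases, 4 pentose phosphate enzymes and 3 for haem oxygenase and ferritin.

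Messenger RNA of 8 lines was sequenced with 3 libraries a line, all from B16F10-luc2 cells, which carry a luciferase reporter and were grown in DMEM with serum. The groups are the parental cells (genotype WT in the labels), the MITF KO (Mitf-KO), the TFE3 KO (Tfe3-KO), the TFEB KO (Tfeb-KO), the TFEB/TFE3 DKO (Tfeb and Tfe3 KO), the MITF/TFE3 DKO (Mitf and Tfe3 KO), the MITF/TFEB DKO (Mitf and Tfeb KO) and the TKO (Mitf, Tfeb and Tfe3 KO). The KO lines were isolated as clones, the MITF KO was an older line with a frameshift in Mitf that may still make a truncated protein, and TFEB and TFE3 were inactivated in parental or MITF KO cells with CRISPR-Cas9. A difference between a KO line and the parental cells and a difference between clones cannot be told apart with 1 clone a genotype. Since the DKO and TKO lines without MITF came from MITF KO cells, a trait of that line could recur in all of them. Nothing in the labels says whether the libraries of a line came from separate cultures, so p-values measure the spread between these libraries, which may be technical.

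Glutathione is a small thiol made by glutamate-cysteine ligase (Gclc and Gclm) and glutathione synthetase (Gss), and it is returned to its reduced form by glutathione reductase (Gsr). Thioredoxin and its reductases run in parallel and pass electrons to the peroxiredoxins, while glutathione serves the glutathione peroxidases and the S-transferases, and both pathways draw NADPH from the pentose phosphate pathway. NRF2 (Nfe2l2) is held back by KEAP1 (Keap1) and, once released, binds antioxidant response elements and induces many of these genes. Melanocytic cells make melanin, a chemistry that yields peroxide and quinones, and MITF is their lineage factor.

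Values are CPM (reads scaled to a common library total, by the authors with TMM) from 3′ end sequencing, where reads come from the transcript end and do not scale with its length. Reads on genes ranged from 18300902 to 26667877 a library. A log2 difference is the difference in mean log2(CPM + 1) between 3 and 3 libraries, which understates the change of genes with low CPM. A gene rose or fell where its adjusted p was below 0.05 by limma over all 12010 genes. A DEG is a gene with a fold change of at least 2 on that scale and an unadjusted p below 0.05. In bulk RNA, fewer cells of a type and less RNA per cell cannot be told apart. The 7 melanocytic markers summed to between 25710 and 26620 CPM in parental cells, up to 39320 in the MITF KO and as little as 15540 in the TKO. Of the markers of other cell types, Col1a2, Lyz2, Pecam1 and Krt14 had a row. Krt14 was at 0 in parental cells and at most 0.161 CPM in the other lines, except for 6.51 to 8.98 in the MITF/TFEB DKO and 16.1 to 19.3 in the TKO. Lyz2 was at most 0.654 CPM, except for 1.27 to 1.99 (MITF/TFE3 DKO), 2.0 to 3.90 (MITF/TFEB DKO) and 2.84 to 3.66 (TKO). Pecam1 was at 7.73 to 8.59 CPM in parental cells, up to 31.6 in the TFEB/TFE3 DKO, 1.82 to 2.79 in the TFE3 KO and at most 2.03 in any line without MITF. Col1a2 was at 9.19 to 12.3 CPM in parental cells, 30.6 to 39.6 in the MITF KO and 28.2 to 37.5 in the MITF/TFEB DKO. The part of these shifts in the results was not tested. Mitf reads were not lower in the MITF KO (mean 1397 CPM, parental 776), as a frameshift need not remove the transcript, whereas Tfeb fell from 8.80 to 2.88 in the TFEB KO and Tfe3 from 37.1 to 10.8 in the TFE3 KO.

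The members moved mostly in the lines without MITF, and in those lines more of them fell than the share of all genes that fell in 3 of the 4. In the MITF KO, 11 of 54 members rose (20.4%, against 20.1% of all genes) and 17 fell (31.5%, against 17.8%). In the MITF/TFE3 DKO, 15 rose (27.8%, all genes 20.2%) and 12 fell (22.2%, all genes 21.7%). In the MITF/TFEB DKO, 13 rose (24.1%, all genes 28.8%) and 23 fell (42.6%, all genes 27.3%). The TKO was close to the MITF/TFEB DKO, with 13 members higher (24.1%, all genes 28.3%) and 25 lower (46.3%, all genes 27.9%). The median log2 difference of the 54 members was -0.14 for the MITF KO, -0.01 for the MITF/TFE3 DKO, -0.18 for the MITF/TFEB DKO and -0.31 for the TKO, beside medians over all genes within 0.02 of 0. Of these calls, 3 of 28 in the MITF KO, 10 of 27 in the MITF/TFE3 DKO, 4 of 36 in the MITF/TFEB DKO and 7 of 38 in the TKO were lost when some single library was left out.

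Where MITF was intact, few members changed, and so did few of all genes. In the TFE3 KO, 4 rose (7.41%, all genes 4.50%) and 6 fell (11.1%, all genes 7.78%). In the TFEB KO, 3 rose (5.56%, all genes 2.25%) and 1 fell (1.85%, all genes 2.59%), and in the TFEB/TFE3 DKO 5 rose (9.26%, all genes 4.72%) and 1 fell (1.85%, all genes 4.09%). With the 12 libraries of the 4 lines without MITF set against the 12 with it, 16 members were higher (29.6%, all genes 35.1%) and 24 lower (44.4%, all genes 33.7%). These p-values measure the spread between libraries, and the 4 lines without MITF share an origin, so they are not 4 independent cases. How many of all genes separated these 12 libraries from the 12 others without overlap was not counted.

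**Figure D1:**
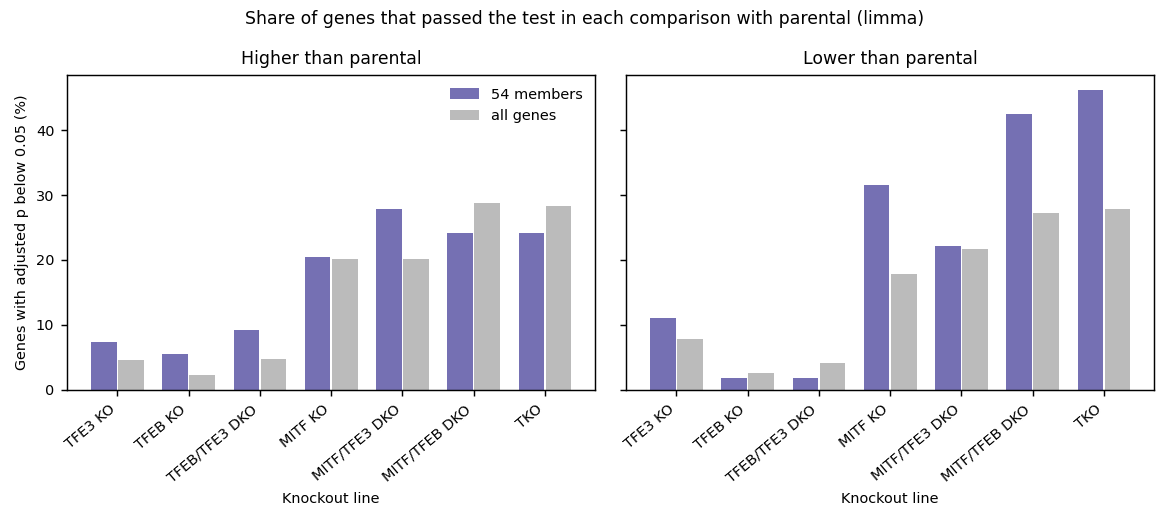
Share of genes (percent, y axis) that were higher (left) or lower (right) than parental at an adjusted p below 0.05, for the 54 members (purple) and all 12010 genes (grey) in each KO line. The members' share on the lower side reached 46.3% in the TKO, where 27.9% of all genes were lower.

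DEGs among the members were fewer. In the MITF KO, 2 members were upregulated and 3 downregulated (all genes 3.29% and 2.99%). In the MITF/TFE3 DKO the numbers were 1 and 2 (all genes 3.50% and 2.37%), in the MITF/TFEB DKO 5 and 5 (8.78% and 4.94%) and in the TKO 4 and 6 (8.28% and 6.41%). All DEGs of the TFE3 KO (5, all genes 0.366% up and 1.34% down), the TFEB KO (1, all genes 0.192% and 0.591%) and the TFEB/TFE3 DKO (2, all genes 0.575% and 0.383%) were upregulated S-transferases. Between the lines without and with MITF, 2 members were upregulated and 4 downregulated (4.37% and 2.76%). Of the 54 members, 12 had a mean below 5 CPM, and all DEGs of the MITF-intact lines lay among them.

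**Figure D2:**
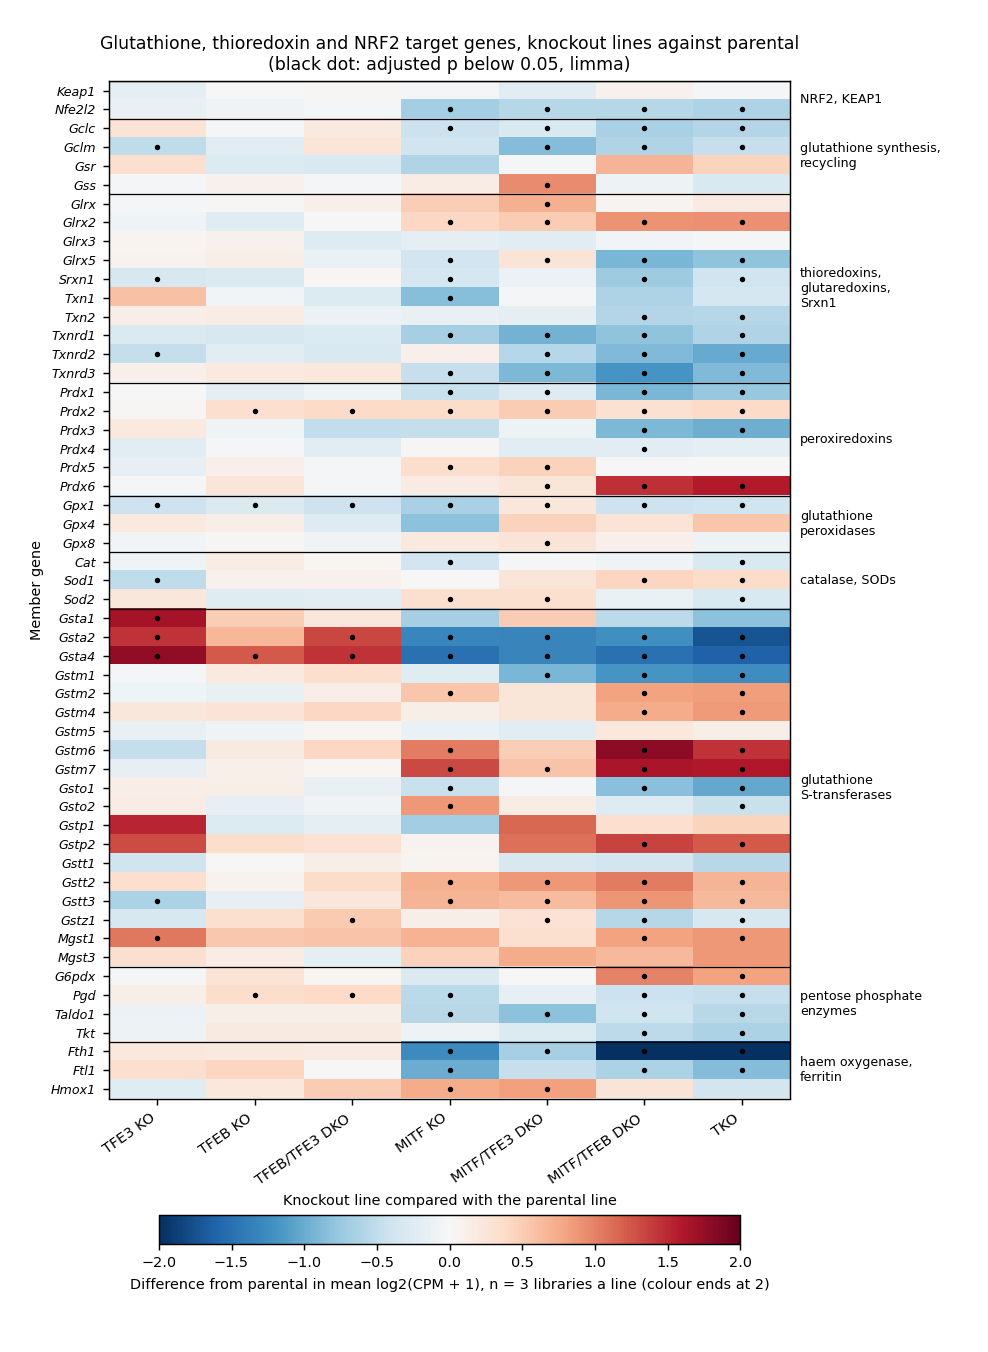
Each row is a member gene, grouped by role, and each column a KO line; colour is the difference from parental in mean log2(CPM + 1) over 3 libraries a line, ending at 2, and a black dot marks an adjusted p below 0.05. Fth1 is the darkest blue in the 2 lines lacking MITF and TFEB, the MITF/TFEB DKO and the TKO (-2.35 and -2.34), and Gsta2 and Gsta4 are red in the KO lines with MITF, with no dot for Gsta2 in the TFEB KO, and blue in the lines without it.

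The mRNA of NRF2 fell in each of the 4 lines without MITF and that of its inhibitor did not. NRF2 protein and its activity were not measured here. Nfe2l2 (chromosome 2, 75504739 to 75534985, minus strand, mm39) stood at 183, 182 and 185 CPM in the parental libraries and at 108, 124 and 112 in the MITF KO, with 118 to 131 in the MITF/TFE3 DKO, 114 to 140 in the MITF/TFEB DKO and 113 to 122 in the TKO. No library of these lines reached the parental range, while the TFE3 KO, TFEB KO and TFEB/TFE3 DKO libraries, at 151 to 195, spanned it. How many of all genes separate so was not counted. The log2 differences were -0.68 ± 0.10 (SE, n = 3 and 3, adjusted p = 1.3e-05) in the MITF KO, -0.57 in both the MITF/TFE3 DKO (adjusted p = 9.3e-05) and the MITF/TFEB DKO (5.0e-05), and -0.62 (1.6e-05) when all 3 factors were lost. Part of this was shared by its surroundings, as the median over the 50 measured genes on either side of Nfe2l2 was -0.27 in the MITF KO and -0.21 in the TKO. Keap1 (chromosome 9, 21141026 to 21150679, minus strand) stood at 137 to 141 CPM in parental cells and between 108 and 166 in the 21 KO libraries, and passed in no comparison.

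Both subunits of glutamate-cysteine ligase, the enzyme that sets the rate of glutathione synthesis, were lower in the lines without MITF, Gclc in all 4 and Gclm in 3. Gclc, the catalytic subunit, went from 33.3, 35.2 and 30.9 CPM in parental cells to 23.4 to 25.1 in the MITF KO, 18.4 to 22.8 in the MITF/TFEB DKO and 20.3 to 23.7 in the TKO. These 9 libraries lay below every library with MITF, and how many of all genes separate in this way was not counted. The log2 differences were -0.43 ± 0.11 (adjusted p = 0.0029), -0.65 ± 0.11 (2.1e-05) and -0.58 ± 0.11 (7.9e-05), and in the MITF/TFE3 DKO -0.31 ± 0.11 (0.025), a call that was lost without replicate 1 or 2 of either line (-0.23 to -0.30). Gclm, the modifier subunit, fell from 45.3, 52.6 and 47.9 CPM to 23.3, 25.6 and 30.3 in the MITF/TFE3 DKO (-0.86 ± 0.17, adjusted p = 2.8e-04) and to 25.7 to 40.7 in the MITF/TFEB DKO (-0.61, 0.0038), and the MITF KO, at 33.3 to 40.6, did not pass (-0.40, 0.063). In the TKO it stood at 31.7 to 38.9 (-0.47, adjusted p = 0.021), which failed without parental replicate 2 or TKO replicate 2 or 3 (-0.40 to -0.46), and in the TFE3 KO at 37.8, 24.5 and 41.4 (-0.51, 0.049), where replicate 2 was the lowest and the difference without it was -0.29. That call was also lost without any 1 of the parental libraries (-0.45 to -0.56).

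The other 2 enzymes behaved differently from the ligase. Gss, which adds glycine to complete glutathione, was at 20.6, 15.3 and 17.6 CPM in parental cells and at 36.9, 43.3 and 27.2 in the MITF/TFE3 DKO, where it rose by a log2 difference of 0.95 ± 0.16 (adjusted p = 4.2e-05). In the other 6 KO lines it lay between 13.6 and 21.1 CPM and did not pass against parental. Gsr, the reductase, varied within lines, from 8.11 to 15.2 CPM in parental cells, and passed only between the MITF/TFEB DKO (14.3 to 24.6 CPM) and the MITF KO (6.10 to 7.39), at 1.27 ± 0.34 (adjusted p = 0.0033).

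**Figure D3:**
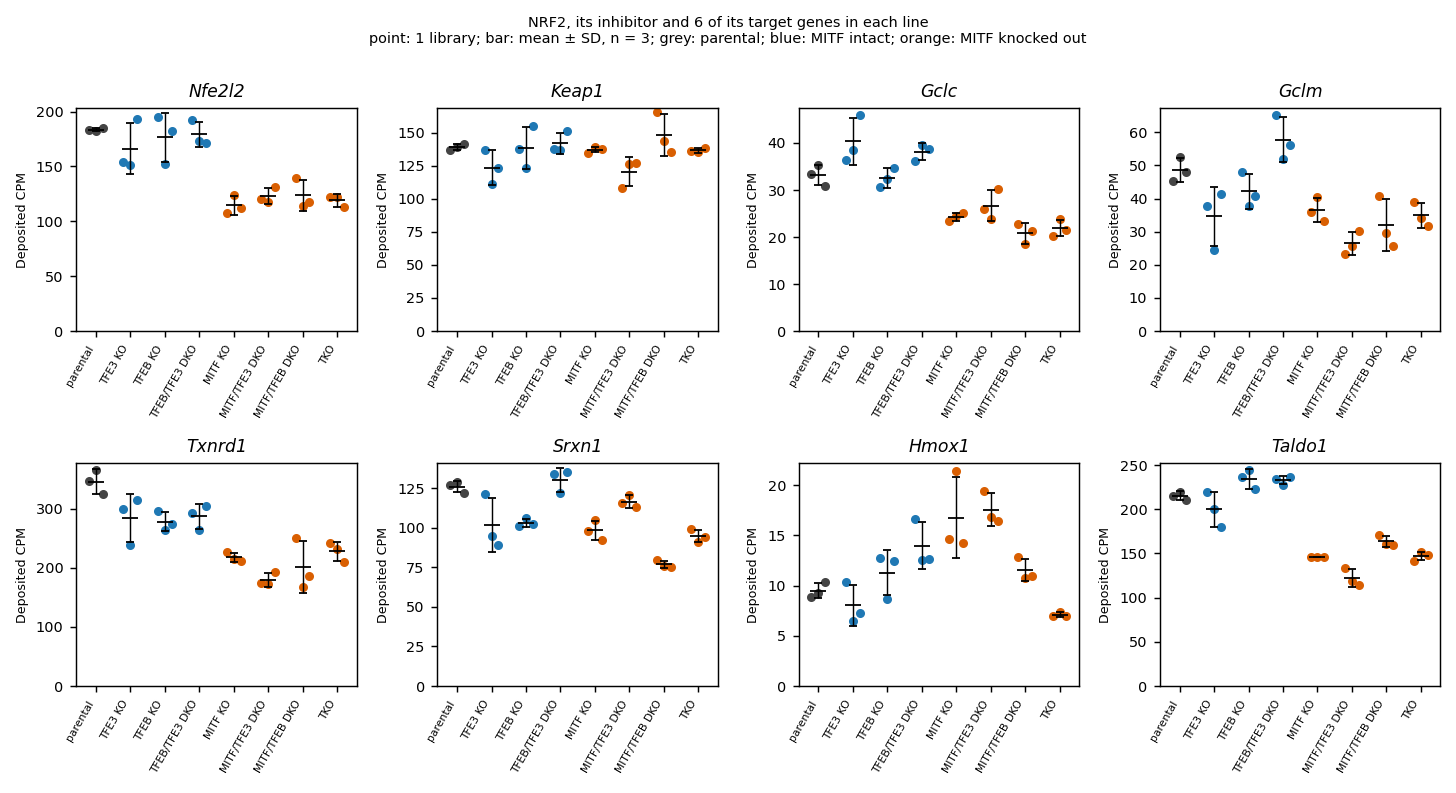
Deposited CPM (y axis) of Nfe2l2, Keap1 and 6 NRF2 target genes in each line (x axis); points are libraries, bars the mean ± SD of 3, and orange marks lines without MITF. Nfe2l2, Gclc and Taldo1 are lower in all 12 orange libraries than in the 12 others, whereas Keap1 spans one range throughout. The share of all genes that separate in this way was not counted.

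All 3 thioredoxin reductase genes fell in the MITF/TFE3 DKO, the MITF/TFEB DKO and the TKO. Txnrd1, the cytosolic reductase, went from 347, 365 and 324 CPM to 212 to 226 in the MITF KO (-0.66 ± 0.12, adjusted p = 8.6e-05), 172 to 193 in the MITF/TFE3 DKO (-0.94, 1.0e-06), 167 to 250 in the MITF/TFEB DKO (-0.80, 3.7e-06) and 209 to 242 in the TKO (-0.60, 1.2e-04). Txnrd3, whose product joins a glutaredoxin domain to a reductase, stood at 29.2 to 37.7 CPM in parental cells and at 11.2 to 16.7 in the MITF/TFEB DKO, a fall of 1.18 ± 0.16 on the log2 scale (adjusted p = 1.1e-06). It fell in all 4 lines without MITF, by 0.47 with MITF alone lost, 0.90 with TFE3 also lost and 0.88 in the TKO, the first of which was lost without MITF KO replicate 1 or 3 or parental replicate 2 or 3 (-0.38 to -0.47). The mitochondrial reductase gene Txnrd2 kept to a different order. It was at 46.4 to 51.0 CPM in parental cells and 50 to 55.7 in the MITF KO, but at 29.6 to 34.9 in the MITF/TFE3 DKO (-0.57, 2.4e-04), 23.8 to 30.9 in the MITF/TFEB DKO (-0.89, 3.8e-07) and 22.2 to 25.6 in the TKO (-1.003, 5.4e-08). It was also lower in the TFE3 KO (31.1 to 39.5 CPM, -0.48 ± 0.11, adjusted p = 0.0049), where the median of its neighbours was -0.30. The genes around it had medians of 0.34 (MITF/TFEB DKO) and 0.41 (TKO), opposite in sign to Txnrd2.

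Srxn1, sulfiredoxin, which repairs over-oxidised peroxiredoxins, fell from 127, 129 and 122 CPM to 75.0 to 79.5 in the MITF/TFEB DKO (-0.70 ± 0.09, adjusted p = 4.0e-07). The falls in the MITF KO (92.4 to 105 CPM, -0.35, 0.0025) and the TKO (91.3 to 99.2, -0.41, 4.0e-04) were smaller, and the MITF/TFE3 DKO, at 113 to 121, did not pass. In the TFE3 KO it was at 121, 94.5 and 89.0 (-0.32, adjusted p = 0.019), a call that was lost without parental replicate 1 or 2 or TFE3 KO replicate 2 or 3 (-0.23 to -0.31). The mitochondrial glutaredoxins went opposite ways. Glrx5, which serves iron-sulphur cluster assembly, fell from 341 to 377 CPM to 189 to 193 in the MITF/TFEB DKO (-0.92 ± 0.09, adjusted p = 4.6e-09) and 196 to 221 in the TKO (-0.81, 3.1e-08), while it rose to 401 to 466 in the MITF/TFE3 DKO (0.25, 0.022), though not without parental replicate 1 or MITF/TFE3 DKO replicate 1 (0.21 and 0.19). The MITF KO also lay below parental for Glrx5, and the MITF/TFEB DKO differed from it by -0.53 and the MITF/TFE3 DKO by 0.64. Glrx2 rose from 58.0, 65.0 and 58.9 CPM to 109 to 121 in the MITF/TFEB DKO and 113 to 117 in the TKO (0.90 and 0.92 ± 0.09, adjusted p = 2.3e-08 and 1.5e-08), where its neighbours had medians of 0.67 and 0.68. Less its neighbours, Glrx2 was higher by 0.22 and 0.23. Smaller Glrx2 rises also passed in the MITF KO and the MITF/TFE3 DKO, so both genes rose in the latter. Against parental, Glrx rose only in the MITF/TFE3 DKO (7.30 to 10.7 CPM, parental 3.50 to 7.01, 0.71 ± 0.21, adjusted p = 0.0096), and not without parental replicate 2 or MITF/TFE3 DKO replicate 1 (0.53 and 0.56). Txn2, the mitochondrial thioredoxin, fell from 248 to 280 CPM to 170 to 184 in the MITF/TFEB DKO (-0.58, adjusted p = 7.7e-06) and 169 to 187 in the TKO (-0.56, 1.0e-05), and Glrx3 passed in no comparison.

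Sequence is shown for 5 promoters (RefSeq, build GRCm38.p6, 250 bases before to 50 after the start), 4 with the core of the antioxidant response element and Fth1, the member with the largest fall. Of the 54 members 48 matched an entry, with 68 promoters. The core TGACNNNGC (either strand) was in 11 of the 68 (16.2%) and in 12.4% of all 32851 promoters, the E-box CACGTG in 2 (2.94%, all 7.15%) and its variant CATGTG in 5 (7.35%, all 14.2%). The 11 include Nfe2l2, Srxn1, Gclm, Txnrd1, Prdx1, Pgd and G6pdx, genes that went in both directions. A match of letters is a description of this window only. Capitals mark the response element core, and each sequence reads 5′ to 3′ on the gene's strand.
Prdx1 (chr4:116685349-116685648, plus strand, core starting 133 bases before the start): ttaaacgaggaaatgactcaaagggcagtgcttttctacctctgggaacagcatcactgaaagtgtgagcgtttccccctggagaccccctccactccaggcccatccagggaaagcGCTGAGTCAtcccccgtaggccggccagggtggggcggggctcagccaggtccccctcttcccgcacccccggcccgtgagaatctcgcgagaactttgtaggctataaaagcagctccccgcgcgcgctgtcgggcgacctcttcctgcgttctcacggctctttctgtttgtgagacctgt
Txnrd1 (chr10:82858956-82859255, plus strand, 1 of 3 listed starts, core starting 92 bases before it): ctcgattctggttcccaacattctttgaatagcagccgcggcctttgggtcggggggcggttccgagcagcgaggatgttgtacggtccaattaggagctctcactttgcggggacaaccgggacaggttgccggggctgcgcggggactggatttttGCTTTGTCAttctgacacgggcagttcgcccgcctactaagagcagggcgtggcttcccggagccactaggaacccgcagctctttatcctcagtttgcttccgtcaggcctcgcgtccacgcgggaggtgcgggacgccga
Gclm (chr3:122245307-122245606, plus strand, core starting 134 bases before the start): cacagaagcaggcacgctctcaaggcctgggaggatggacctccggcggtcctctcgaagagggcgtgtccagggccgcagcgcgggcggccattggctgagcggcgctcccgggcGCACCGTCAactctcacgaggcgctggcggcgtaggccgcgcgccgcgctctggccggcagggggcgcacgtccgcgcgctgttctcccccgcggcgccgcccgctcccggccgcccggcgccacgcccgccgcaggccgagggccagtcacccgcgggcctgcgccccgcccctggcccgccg
G6pdx (chrX:74428831-74429130, minus strand, core starting 57 bases before the start): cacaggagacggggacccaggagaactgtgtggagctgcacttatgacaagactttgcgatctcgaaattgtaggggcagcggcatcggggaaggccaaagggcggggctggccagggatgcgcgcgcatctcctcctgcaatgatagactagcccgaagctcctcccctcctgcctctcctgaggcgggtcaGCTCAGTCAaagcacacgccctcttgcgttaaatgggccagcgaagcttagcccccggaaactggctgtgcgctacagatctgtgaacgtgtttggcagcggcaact
Fth1 (chr19:9982396-9982695, plus strand, 1 of 2 listed starts, none of the 3 motifs here, whereas the window of the other, chr19:9980350-9980649, holds CATGTG on the reverse strand starting 196 bases before that start): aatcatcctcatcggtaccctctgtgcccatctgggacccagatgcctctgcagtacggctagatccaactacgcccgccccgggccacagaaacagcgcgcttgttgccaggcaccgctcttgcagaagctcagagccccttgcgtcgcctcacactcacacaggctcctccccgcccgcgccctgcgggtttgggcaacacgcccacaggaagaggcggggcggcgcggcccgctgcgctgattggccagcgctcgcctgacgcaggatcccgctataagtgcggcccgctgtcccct

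Prdx1 and Prdx6, both abundant peroxiredoxins, moved in opposite directions in the 2 lines lacking MITF and TFEB. Prdx1 (chromosome 4, 116532123 to 116558398, plus strand), a thioredoxin-dependent peroxidase, was among the most abundant members, at 1857, 1885 and 1695 CPM in parental cells. It fell to 1259 to 1441 in the MITF KO (-0.44 ± 0.09, adjusted p = 6.7e-04), 918 to 1025 in the MITF/TFEB DKO (-0.91, 2.4e-08) and 1031 to 1113 in the TKO (-0.76, 3.7e-07). It was at 1390 to 1672 with MITF and TFE3 lost (-0.25 ± 0.09, adjusted p = 0.035), and that call was lost without parental replicate 1 or 2 or MITF/TFE3 DKO replicate 2 or 3 (-0.19 to -0.25). Prdx1 shares 27.2% of its 3′ 50-base words with other genes, so its reads may be split. Prdx6 (chromosome 1, 161051417 to 161079098, minus strand), which is reduced by glutathione and also acts as a phospholipase, was at 334, 364 and 345 CPM in parental cells and rose to 1017, 981 and 879 in the MITF/TFEB DKO and to 1093, 1023 and 1024 in the TKO. All 6 of those libraries lay above every other library, whose highest was 448. How many of all genes separate these 6 libraries in the same way was not counted.

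The Prdx6 rises were 2.75-fold (log2 difference 1.46 ± 0.09, adjusted p = 8.4e-12) and 3.01-fold (1.59 ± 0.09, 1.3e-12). The 50 genes on either side had medians of 0.63 and 0.80 in these lines, and less that median Prdx6 was higher by 0.83 and 0.79. In the MITF KO and the MITF/TFE3 DKO it was at 375 to 405 and 382 to 448 CPM, with log2 differences of 0.16 (adjusted p = 0.18) and 0.24 (0.043), and the latter call was lost without any 1 of 5 of the 6 libraries (0.18 to 0.28). The ratio of Prdx6 to Prdx1 CPM went from 0.18 to 0.20 in parental libraries to 0.96 to 1.079 in the MITF/TFEB DKO and 0.96 to 0.99 in the TKO, and lay between 0.17 and 0.32 in the other KO lines. The sum of the 6 peroxiredoxins stayed within 2269 to 2880 CPM in all 24 libraries.

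Of the other peroxiredoxins, Prdx2 rose in 6 of the 7 KO lines, by 0.30 to 0.51 on the log2 scale, from 316 to 351 CPM in parental cells to 399 to 515, and the TFE3 KO at 307 to 378 did not pass. In the TFEB KO the call was lost without parental replicate 1 (0.29). Prdx3, the mitochondrial form, fell from 26.8 to 38.7 CPM to 14.1 to 18.1 in the MITF/TFEB DKO (-0.90 ± 0.19, adjusted p = 4.1e-04) and 15.01 to 16.5 in the TKO (-0.97, 1.8e-04), where its neighbours had a median of -0.62. Prdx5 rose in the MITF KO and the MITF/TFE3 DKO by 0.35 and 0.47. Prdx4 fell by 0.23 in the MITF/TFEB DKO (adjusted p = 0.033), a call lost without replicate 2 or 3 of either line (-0.20 to -0.23).

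Among the peroxidases and dismutases, Gpx1 had its own pattern. Its product reduces hydrogen peroxide with glutathione. Gpx1 stood at 154, 179 and 156 CPM in parental cells and at 96.4 to 108 in the MITF KO, the lowest line (-0.64 ± 0.08, adjusted p = 1.2e-06). It was lower in 6 of the 7 KO lines and higher in the MITF/TFE3 DKO, at 168 to 205 CPM (0.22 ± 0.08, adjusted p = 0.033), where the libraries overlapped the parental range and the call was lost without replicate 1 or 2 of that line or parental replicate 1 or 3 (0.16 to 0.19). The smallest fall, in the TFEB KO (123 to 140 CPM, -0.28, adjusted p = 0.043), was lost without any 1 of the 3 parental libraries or TFEB KO replicate 1 or 3 (-0.22 to -0.32). Gpx4, which reduces lipid peroxides and whose 3′ end shares 98.4% of its 50-base words with other genes, ranged from 22.0 to 49.3 CPM in the parental libraries alone and passed in no comparison with them. Against the MITF KO (13.2 to 20.8 CPM) it was higher in the MITF/TFE3 DKO (1.28, adjusted p = 0.0076) and the MITF/TFEB DKO (1.10, 0.014), the latter not without MITF KO replicate 2 or MITF/TFEB DKO replicate 2 or 3 (0.92 to 1.01). Gpx8 rose against parental in the MITF/TFE3 DKO alone (0.26, adjusted p = 0.020), and not without parental replicate 1 or MITF/TFE3 DKO replicate 3 (0.24 for both). Sod1, the cytosolic superoxide dismutase, went from 1073 to 1214 CPM to 672 to 951 in the TFE3 KO (-0.50 ± 0.11, adjusted p = 0.0036) and to 1416 to 1610 in the MITF/TFEB DKO (0.42, 0.0024) and 1407 to 1568 in the TKO (0.37, 0.0063), with neighbour medians of -0.28, 0.30 and 0.30. Sod2 rose in the MITF KO and the MITF/TFE3 DKO (0.32 in both) and fell in the TKO (-0.30), and catalase (Cat) fell in the MITF KO (-0.39) and the TKO (-0.30). The 3 Sod2 calls and the Cat call in the TKO were each lost when some single library was left out (0.25 to 0.32, 0.24 to 0.32, -0.22 to -0.31 and -0.20 to -0.27).

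Glutathione S-transferases, which attach glutathione to electrophiles, went in both directions. The alpha class genes Gsta1, Gsta2 and Gsta4 lie together on chromosome 9 (78090056 to 78263077). Gsta4 rose in all 3 KO lines with MITF and Gsta2 in 2 of them, and both were below 1 CPM in every library without MITF. Gsta4 was at 2.03, 2.55 and 2.07 CPM (47, 56 and 46 reads) in parental cells. It rose to 8.91 to 11.2 in the TFE3 KO (1.78 ± 0.17, adjusted p = 1.8e-07), 5.59 to 7.73 in the TFEB KO (1.23, 5.1e-05) and 6.53 to 9.62 in the TFEB/TFE3 DKO (1.45, 6.4e-06). Without MITF no library exceeded 0.478 CPM, with 0, 8 and 2 reads in the MITF KO and 0, 1 and 2 in the TKO, so no fold is given for the TKO. On the log2 scale it fell by 1.5 in the MITF KO (adjusted p = 3.3e-07), by 1.32 in the MITF/TFE3 DKO (2.5e-06) and by 1.49 with MITF and TFEB lost (1.4e-07).

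Gsta2 was at 2.50, 3.27 and 2.83 CPM in parental cells, 7.23 to 11.6 in the TFE3 KO (1.45 ± 0.20, adjusted p = 3.4e-05) and 6.81 to 11.3 in the TFEB/TFE3 DKO (1.34, 1.4e-04). In the TFEB KO it was at 4.07 to 6.23 CPM (0.67 ± 0.20, adjusted p = 0.063) and did not pass, and no library without MITF exceeded 0.966. Gsta1 was less even, at 3.49, 13.5 and 8.68 CPM in the TFE3 KO against 1.04, 1.501 and 2.92 (1.66 ± 0.42, adjusted p = 0.012). That call was lost without TFE3 KO replicate 2 (1.28) or parental replicate 1 (1.45), and 86.2% of the 50-base words at the 3′ end of Gsta1 and 48.5% at that of Gsta2 occur in other genes, mainly of the same family, so reads of these genes are uncertain in their split. Mgst1, a membrane-bound transferase, rose in the TFE3 KO (3.39 to 6.84 CPM, parental 1.23 to 2.61, 1.05 ± 0.32, adjusted p = 0.033), and not without parental replicate 1 or 2 or TFE3 KO replicate 2 or 3 (0.84 to 1.06). Its rises in the MITF/TFEB DKO (0.80, adjusted p = 0.037) and the TKO (0.87, 0.024) were lost in the same way (0.54 to 0.79 and 0.70 to 0.86).

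The mu class genes on chromosome 3 went in both directions. Gstm7 (107832278 to 107839187, minus strand) rose from 1.17, 2.14 and 1.26 CPM to 4.58 to 6.03 in the MITF KO (1.32 ± 0.18, adjusted p = 2.8e-06), 5.49 to 7.96 in the MITF/TFEB DKO (1.63, 5.0e-08) and 5.09 to 7.70 in the TKO (1.60, 6.1e-08), and to 2.51 to 2.87 in the MITF/TFE3 DKO (0.57, 0.012), a call lost without parental replicate 1 or 3 (0.47 and 0.50). Gstm6, next to it, rose in the MITF KO (4.80 to 7.03 CPM, parental 1.94 to 3.05, 1.03, 2.5e-04), the MITF/TFEB DKO (9.45 to 11.5, 1.79, 7.2e-08) and the TKO (7.54 to 8.73, 1.45, 1.5e-06). Gstm1, in the same cluster (107919380 to 107925380, minus strand), fell from 31.5, 34.6 and 37.6 CPM to 14.8 to 21.3 in the MITF/TFE3 DKO (-0.91 ± 0.13, adjusted p = 1.1e-05), 13.7 to 15.5 in the MITF/TFEB DKO (-1.17, 1.0e-07) and 13.4 to 14.97 in the TKO (-1.24, 4.1e-08). The MITF KO, at 26.5 to 31.3, did not pass. Genes around the cluster had medians of 0.33 to 0.35 in the 2 lines lacking MITF and TFEB, opposite in sign to Gstm1. Gstm2 rose in the MITF KO (98.0 to 115 CPM, parental 65.7 to 78.03, 0.55, adjusted p = 0.0028), the MITF/TFEB DKO (0.81, 2.7e-05) and the TKO (0.84, 1.7e-05), Gstm4 rose by 0.75 and 0.85 in the last pair of lines, and Gstm5 did not pass against parental.

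Of the theta class, Gstt2 rose in the 4 lines without MITF, from 2.37 to 3.01 CPM to at most 8.10, with log2 differences of 0.70 (MITF KO), 0.87 (MITF/TFE3 DKO), 0.68 (TKO) and 1.03 (MITF/TFEB DKO). Gstt3, which shares its 3′ end with an overlapping gene model on the same strand, rose in the same 4 lines (0.64 to 0.88) and fell in the TFE3 KO (23.7 to 29.3 CPM, parental 38.2 to 44.5, -0.64 ± 0.14, adjusted p = 0.0045). Gstz1, which takes part in tyrosine breakdown, rose in the TFEB/TFE3 DKO (52.7 to 59.6 CPM, parental 38.1 to 39.6, 0.52 ± 0.11, adjusted p = 0.0046) and the MITF/TFE3 DKO (0.28, 0.046) and fell in the MITF/TFEB DKO (22.6 to 29.0, -0.57, 1.7e-04) and the TKO (-0.33, 0.017). Its neighbours had medians of -0.47 and -0.44 there. The MITF/TFE3 DKO call was lost without any 1 of 5 of the 6 libraries (0.24 to 0.30) and the TKO call without TKO replicate 3 (-0.31). Of the omega genes, Gsto1 fell in 3 of the 4 lines without MITF, and in the TKO it went from 43.7 to 45.4 CPM to 20.4 to 23.1 (-1.03 ± 0.09, adjusted p = 1.4e-09) with a neighbour median of -0.78. Gsto2 rose in the MITF KO alone (1.69 to 2.17 CPM, parental 0.364 to 0.734, 0.87, adjusted p = 4.9e-04), and its fall in the TKO (-0.44, 0.041) was lost without any 1 of 5 of the 6 libraries (-0.38 to -0.46). Of the pi class, Gstp2 was at most 0.584 CPM in parental cells and rose to 0.980, 2.60 and 4.74 in the MITF/TFEB DKO (1.34 ± 0.47, adjusted p = 0.018) and 1.20, 2.47 and 3.14 in the TKO (1.22, 0.031). The first call was lost without parental replicate 2 or MITF/TFEB DKO replicate 3 (1.22 and 0.98), the second without parental replicate 1 or 2 or TKO replicate 2 or 3 (1.03 to 1.24), and 78.7% of its 3′ words are shared, mainly with Gstp1. Gstp1, Gstt1 and Mgst3 passed in no comparison with parental.

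**Figure D4:**
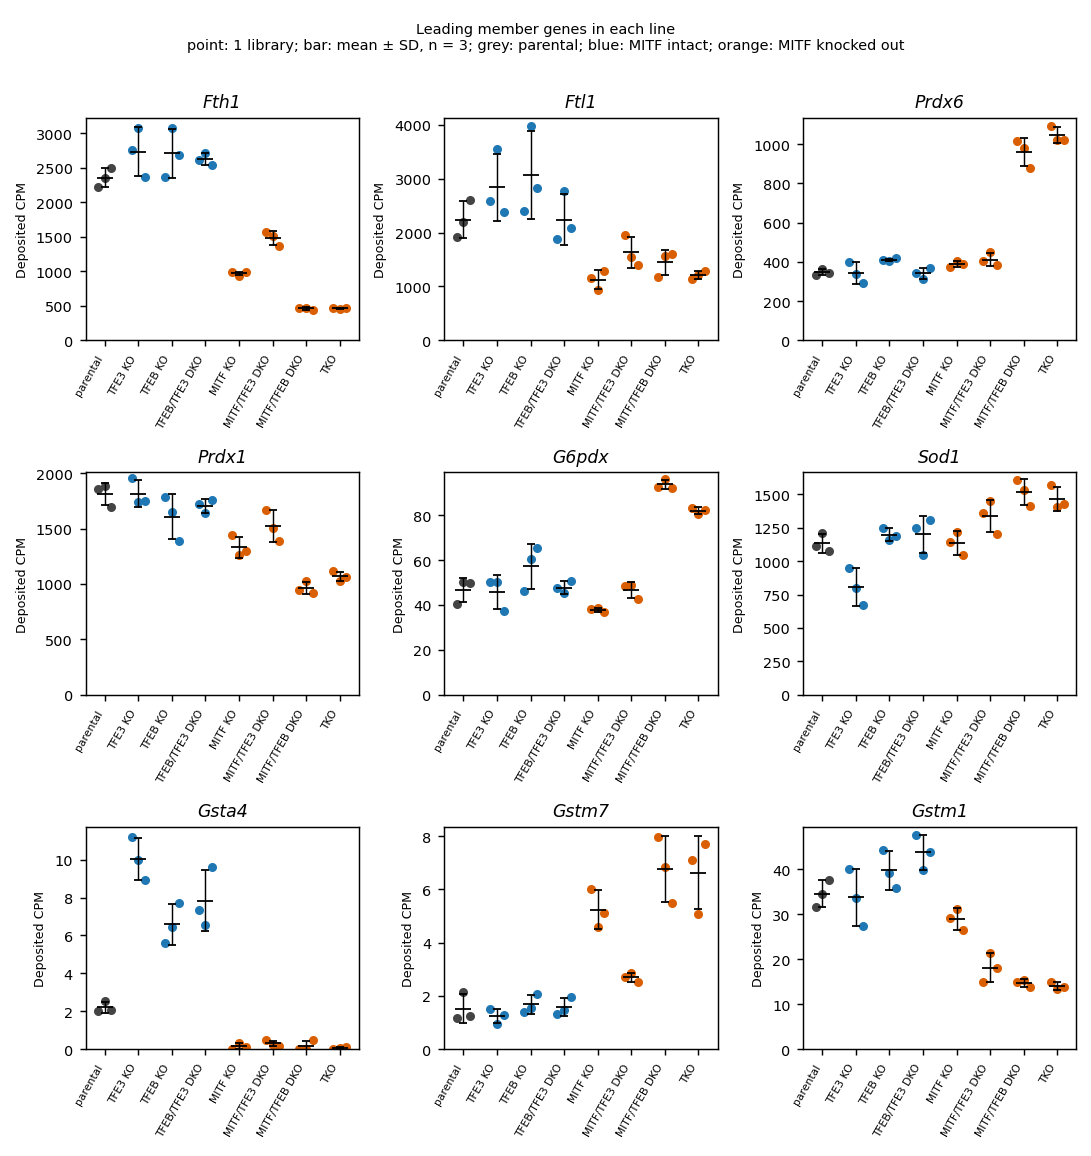
Deposited CPM (y axis, from 0) of 9 members in each line (x axis); points are libraries and bars the mean ± SD of 3, with parental in grey, MITF-intact KO lines in blue and lines without MITF in orange. Fth1 and Gsta4 are lower in every orange library than in any other, and Prdx6 and G6pdx are higher in the 2 lines lacking MITF and TFEB than in every other library. The share of all genes that separate in these ways was not counted.

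The pentose phosphate enzymes, which regenerate NADPH and rebuild sugars, did not move as one. G6pdx (chromosome X, 73449857 to 73472819, minus strand), which encodes the first and rate-limiting enzyme of the oxidative branch, rose from 40.6, 50.1 and 49.7 CPM to 92.3 to 96.1 in the MITF/TFEB DKO (0.99 ± 0.12, adjusted p = 2.5e-07) and 80.4 to 83.4 in the TKO (0.80, 4.8e-06), with neighbour medians of 0.34 and 0.38. The highest of the 18 other libraries was 65.5, and how many of all genes separate so was not counted. Pgd, the next dehydrogenase of that branch, went the other way, from 158 to 176 CPM to 110 to 121 in the MITF KO (-0.54 ± 0.09, adjusted p = 4.7e-05), 122 to 127 in the MITF/TFEB DKO (-0.43, 2.7e-04) and 117 to 129 in the TKO (-0.46, 1.4e-04). It rose in the TFEB KO (208 to 221 CPM, 0.34, adjusted p = 0.023) and the TFEB/TFE3 DKO (195 to 260, 0.40, 0.0051). The first of these was lost without replicate 1 or 3 of either line (0.30 to 0.35) and the second without TFEB/TFE3 DKO replicate 3 (0.29). Pgd shares 33.1% of its 3′ 50-base words with other genes. In the non-oxidative branch, Taldo1 fell in all 4 lines without MITF, from 210 to 220 CPM to 145.5 to 146.1 in the MITF KO and 114 to 134 in the MITF/TFE3 DKO (-0.56 and -0.81 ± 0.07, adjusted p = 2.2e-06 and 8.6e-09), and Tkt fell by 0.52 with MITF and TFEB lost and by 0.63 in the TKO.

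Of the ferritin chains, Fth1 fell in all 4 lines without MITF and Ftl1 in 3 of them. Fth1 (chromosome 19, 9957911 to 9962462, plus strand), the heavy chain that oxidises iron for storage, was at 2216, 2358 and 2500 CPM in parental cells. It stood at 938 to 985 in the MITF KO, 1370 to 1570 in the MITF/TFE3 DKO, 444 to 475 in the MITF/TFEB DKO and 461 to 469 in the TKO. The 12 libraries without MITF did not overlap the 12 others, which lay at 2216 to 3082, and the 4 lines fell into 3 levels that did not overlap, with the MITF/TFEB DKO and the TKO at the same one. The share of all genes that separate so was not counted. The log2 differences from parental were -1.28 ± 0.10 (2.43-fold, adjusted p = 2.0e-10), -0.67 (1.59-fold, 7.1e-06), -2.35 (5.10-fold, 2.2e-15) and -2.34 (5.06-fold, 1.3e-15). Neighbouring genes had medians of -0.39 and -0.35 in the last 2 lines.

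Ftl1 (chromosome 7, 45107367 to 45109308, minus strand), the light chain, went from 1924, 2201 and 2601 CPM to 937 to 1287 in the MITF KO (-0.99 ± 0.19, adjusted p = 2.5e-04), 1184 to 1606 in the MITF/TFEB DKO (-0.63, 0.0074, and -0.49 with the call lost without its replicate 1) and 1134 to 1294 in the TKO (-0.87, 4.4e-04). It was at 1406 to 1955 CPM with MITF and TFE3 lost (-0.46 ± 0.19, adjusted p = 0.056) and did not pass. The ratio of Fth1 to Ftl1 CPM was 0.96 to 1.15 in parental libraries, 0.76 to 1.001 in the MITF KO, and 0.28 to 0.39 and 0.36 to 0.41 in the 2 lines lacking MITF and TFEB. It was lower in those 6 libraries than in the 18 others, and how many other ratios separate so was not counted. At its 3′ end Ftl1 shares 79.0% of its 50-base words with other genes, among them the pseudogene Ftl1-ps1, so its reads may be split. Hmox1, haem oxygenase, which frees iron from haem, went from 8.89, 9.28 and 10.3 CPM to 14.3 to 21.4 in the MITF KO (0.74 ± 0.17, adjusted p = 0.0016) and 16.5 to 19.4 in the MITF/TFE3 DKO (0.82, 5.4e-04). With MITF and TFEB lost it was at 10.8 to 12.8 and in the TKO at 6.92 to 7.37, and neither passed.

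The loss of TFEB from cells without MITF was set against the MITF KO. With TFEB also lost, 12 members were higher than in the MITF KO (22.2%, all genes 25.1%) and 16 lower (29.6%, all genes 23.9%), with 5 and 2 DEGs (all genes 6.91% and 3.99%). Prdx6 (1.30 ± 0.09, adjusted p = 8.1e-11) and G6pdx (1.28 ± 0.12, 5.9e-09) led the rises, and Gstm1 (-0.93), Txnrd2 (-0.99), Fth1 (-1.07) and Gsto2 (-1.13) the falls. In the MITF/TFE3 DKO, 12 were higher than in the MITF KO (22.2%, all genes 18.1%) and 8 lower (14.8%, all genes 19.7%), with 4 upregulated DEGs (all genes 3.39% up and 1.67% down). Fth1 was higher there (0.61 ± 0.10, adjusted p = 3.5e-05), as was Gpx1 (0.86 ± 0.08, 2.2e-08), and Gstm7, Txnrd2 and Gstm1 were lower by 0.75, 0.67 and 0.66. Gsto2 was lower by 0.72, a call lost with edgeR on recovered reads (adjusted p = 0.057). Txn1 (0.81, adjusted p = 0.036) and Gsta1 (1.17, 0.033) were also higher, each call being lost when any of 5 of the 6 libraries was left out in turn (0.59 to 0.88 for Txn1, 1.04 to 1.25 for Gsta1).

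Whether TFEB or TFE3 loss acted differently with and without MITF was tested by the difference between the 2 effects. Both effects of each pair use the MITF KO and the parental libraries as references. For TFEB, 7 of the 54 members differed by at least 1 on the log2 scale at an adjusted p below 0.05 (all genes 12.1%), and for TFE3, 4 of 54 (all genes 6.09%). The Fth1 difference was -1.26 ± 0.13 (adjusted p = 1.0e-07), as TFEB loss lowered it by 1.07 without MITF and gave 0.20 with MITF. For Prdx6 it was 1.06 ± 0.13 (1.3e-06). Gpx1 differed most clearly for TFE3, at 1.28 ± 0.11 (1.1e-08), with a rise of 0.86 without MITF and a fall of 0.41 with it. Gsta4 differed for both, by -1.23 (4.0e-04) and -1.60 (3.8e-05). With MITF it rose by 1.23 on TFEB loss and 1.78 on TFE3 loss, and without MITF it changed by 0.004 and 0.18. Its CPM was close to the floor in all lines without MITF, where this log2 scale understates a change.

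A list of 58 further genes of these pathways, 55 of them with a row, moved in both directions as well. With MITF lost 14 rose (25.5%, all genes 20.1%) and 10 fell (18.2%, all genes 17.8%). With TFE3 lost as well 21 rose (38.2%, all genes 20.2%) and 13 fell (23.6%, all genes 21.7%). With TFEB lost as well 22 rose (40%, all genes 28.8%) and 15 fell (27.3%, the same share as of all genes). With all 3 lost 24 rose (43.6%, all genes 28.3%) and 15 fell (27.3%, all genes 27.9%), while at most 6 rose and 7 fell in any MITF-intact KO line. The shares that fell were thus near those of all genes. The iron exporter Slc40a1 fell in all 4 lines without MITF, by 2.68 to 3.30 on the log2 scale. Slc7a11, the cystine transporter that feeds glutathione synthesis, fell by 0.55 with MITF lost, 2.18 with TFEB lost as well and 2.95 in the TKO, and by 0.93 in the TFE3 KO, and rose by 0.71 in the TFEB/TFE3 DKO. Its value in the MITF/TFE3 DKO is not given here. Osgin1, an NRF2-responsive gene, fell by 2.30, 1.21, 3.20 and 3.21 in the 4 lines without MITF, taken in the order of the counts above. Ephx1, an epoxide hydrolase, was higher by 1.17 to 1.44 in all 4. Gstk1, a mitochondrial and peroxisomal glutathione transferase, rose in these 4 and also in the 3 KO lines with MITF (0.33 to 0.54). The genes of this list named here were chosen after their values were seen.

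Libraries of a line were not equal for all members, and the same libraries stood out for a group of them. Gstp1, a pi class transferase, was at 3.73, 40.6 and 5.09 CPM in the 3 TFEB KO libraries (10.9-fold between the highest and lowest) and at 11.8, 91.0 and 40.8 in the TFE3 KO. In all 8 lines the library with the highest Gstp1 also had the highest Gstp2, Gpx4 and Txn1, and in 7 of 8 the highest Ftl1, Gsr, Gsta1, Mgst1, Mgst3 and Sod2. That is 9 of the 53 other members in at least 7 lines (17.0%), beside 7.89% of all genes. The library in question was replicate 3 in the parental, MITF/TFEB DKO and TKO lines, replicate 2 in the TFE3 KO, TFEB KO and TFEB/TFE3 DKO, and replicate 1 in the MITF KO and MITF/TFE3 DKO. Txn1, thioredoxin itself, ranged over 2.18-fold within the TFE3 KO (540, 1179 and 824 CPM), and its fall in the MITF KO (259 to 326 CPM, parental 478 to 688, -0.85 ± 0.30, adjusted p = 0.027) was lost without MITF KO replicate 2 or 3 or parental replicate 3 (-0.68 to -0.89). Of these 10, Gpx4, Gstp1, Gstp2, Gsta1 and Ftl1 are among the 8 members that share at least 20% of their 3′ 50-base words with other genes. Prdx1, Nfe2l2, Taldo1 and Keap1 shared the highest library in at most 2 of 8 lines, and the part of this spread in any result was not tested.

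**Figure D5:**
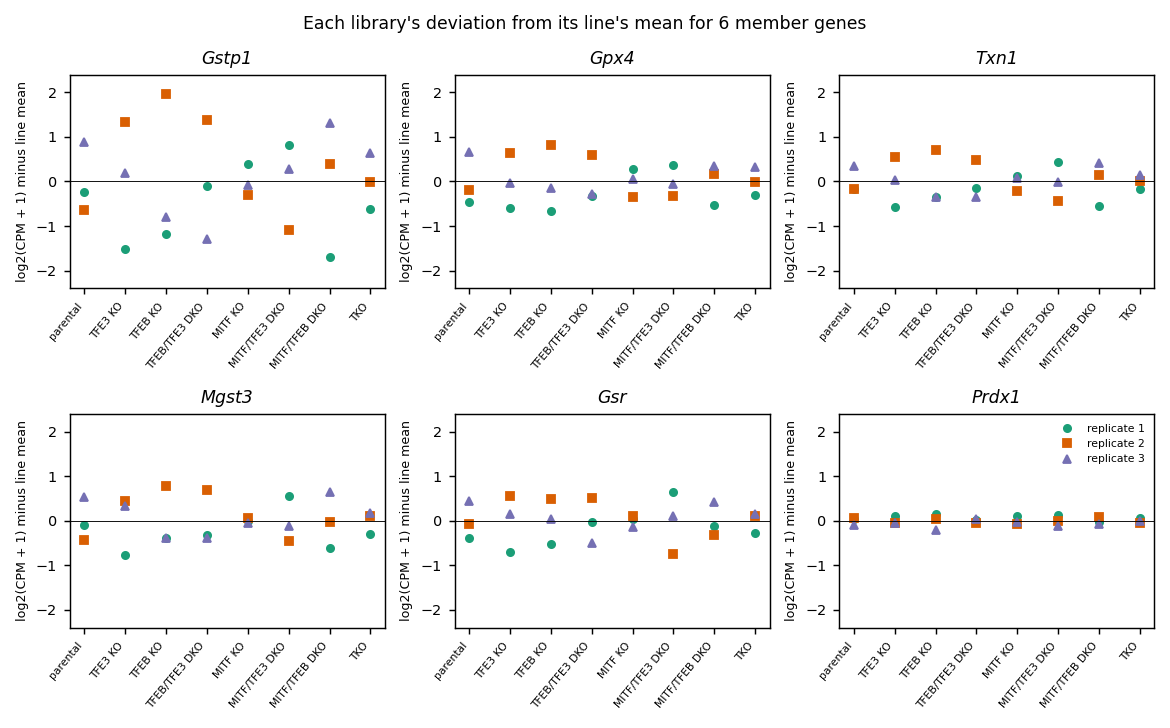
For 6 members, each library's log2(CPM + 1) minus the mean of its line (y axis) in the 8 lines (x axis), with replicates by colour and shape. Gstp1, Gpx4 and Txn1 have the same highest library in each line, Mgst3 and Gsr in 7 of 8, and Prdx1 varies little.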

How the data were processed

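RNA of 24 libraries (8 lines, 3 each) was sequenced with a QuantSeq Forward 3′ kit. Per the submitters' processing notes, reads went through FastQC 0.11.9, Trim Galore 0.6.5, cutadapt 2.10 and STAR 2.7.8a on mm39, and edgeR. The deposited signal values are counts that the authors scaled to CPM with TMM, in 1 table of 12010 genes. Whole reads were recovered for at least 99.9917% of values a library, within 0.1 of a read, giving 18300902 to 26667877 reads on genes. The smallest chi-square per degree of freedom between 2 replicates was 4.63, so none were the same library.

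Values were tested as log2(CPM + 1) with limma 3.58.1 (R 4.3.3, variance trend, all 24 libraries, 16 residual degrees of freedom) and Benjamini-Hochberg adjustment over 12010 genes. edgeR 4.0.16 on the recovered reads was an alternative, as were pseudocounts of 0.25 and 5, a mean of at least 5 CPM (9539 genes), other size factors, a fit of the compared libraries alone, a replicate block and each library left out. Neighbour medians are over 50 genes on each side. In data simulated for the MITF KO against parental over 12010 genes, limma called as DEGs 100% of genes changed 3-fold or more and 40% of those changed 2-fold. Genes changed 2-fold lie on the DEG threshold itself, so their rate is set largely by that threshold. Calls by adjusted p were not scored in the simulated data. The changed genes were drawn from well-covered genes only, and all genes had the same simulated dispersion. These rates therefore do not cover members with few reads or a wide spread between libraries. Tables were made with Python 3.11.15, numpy 2.4.6, pandas 2.3.3 and matplotlib 3.10.9.

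Samples were grouped by their labelled genotype. The members and lists were chosen with earlier results of these data known. Full values were due for Nfe2l2, Keap1, Hmox1, Gclc, Gclm, Srxn1 and Txnrd1 in every line and, in each comparison, for up to 4 rises and 4 falls of largest size that passed and went the same way in all 3 libraries. Values of other members were chosen after they were seen. Same-numbered libraries did not deviate together (42 of 84 pairs correlated above 0.1, mean r 0.022), so numbers were not taken to pair them.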

Additional observations from a re-analysis of the deposited data

Results flagged for a closer look

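The effect of losing TFEB differed with and without MITF, by a test of the difference (limma, log2 scale, effect without MITF minus effect with it), for 7 of 54 members. Of all genes, 12.1% passed the same test, so the count is not particular to the members. Fth1 differed by -1.26 (adjusted p = 1.0e-07), Gstm1 by -1.12 (5.8e-05), Gsta4 by -1.23 (4.0e-04) and Gstz1 by -1.0 (3.2e-05). Prdx6 differed by 1.06 (1.3e-06), G6pdx by 1.0 (6.1e-05) and Gsr by 1.55 (0.014). The Gsr difference had an SE of 0.48, and Gsr ranged up to 2.87-fold between libraries of a line. In 7 of 8 lines its highest library was also that of Gstp1.

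The effect of losing TFE3 differed for 4 of 54 members (all genes 6.09%), Gpx1 by 1.28 (adjusted p = 1.1e-08), Gsta4 by -1.60 (3.8e-05), Gsta2 by -1.47 (7.5e-04) and Mgst1 by -1.42 (0.027). All 3 libraries of the MITF KO and of the MITF/TFE3 DKO held under 1 CPM of Gsta4 and Gsta2. The Mgst1 difference had an SE of 0.45, and Mgst1 ranged up to 3.22-fold between libraries of a line. Its highest library was also that of Gstp1 in 7 of 8 lines.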

How the results depend on the processing

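Of 1620 values of 110 named results under the alternatives, 1543 kept their side of the threshold, 75 lost the call, 2 gained it and 0 were counted as turned. A turn of direction was counted only where a call passed, so changes of sign between values that did not pass were left out. Values less the neighbour median kept the adjusted p of the main fit and could not lose a call. The replicate block changed 0 of the named results, but libraries are not paired by number, so it could not take up the spread within lines described above. With a pseudocount of 5 and with a mean of at least 5 CPM, DEGs among the members numbered 1 and 1 in the MITF KO (5 as reported), 1 and 0 for the TFE3 KO (5), 0 and 0 for the TFEB KO (1), the TFEB/TFE3 DKO (2) and the MITF/TFE3 DKO (3), 5 and 4 for the MITF/TFEB DKO (10), 3 and 5 for the TKO (10), 2 and 2 between the MITF/TFE3 DKO and the MITF KO (4), and 3 and 2 between lines without and with MITF (6). Between the MITF/TFEB DKO and the MITF KO a pseudocount of 5 gave 3 (7). In the MITF/TFE3 DKO edgeR and the values less the neighbour median each gave 5. Leaving out 1 library gave 3 to 6 DEGs in the TFE3 KO and 2 to 5 between the MITF/TFE3 DKO and the MITF KO.

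Members passing the adjusted p numbered 10 in the TFE3 KO, 6 with a mean of at least 5 CPM, 4 with the compared libraries alone and 6 to 12 with 1 library left out. In the TFEB KO 4 became 1 with the compared libraries alone and 1 to 5 with 1 library left out, and between the MITF/TFE3 DKO and the MITF KO 20 became 13 to 21. The 7 TFEB differences became 3 with a pseudocount of 5, and the 4 TFE3 differences 2 with it and 1 with a mean of at least 5 CPM. With the compared libraries alone, the named calls lost were Gclc in the MITF/TFE3 DKO, Gclm, Gsta1, Mgst1, Sod1, Srxn1 and Txnrd2 in the TFE3 KO, Gpx1, Pgd and Prdx2 in the TFEB KO, and Pgd in the TFEB/TFE3 DKO. Low counts limit the alpha class transferases, whose means were under 5 CPM.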
